A study of Mus musculus with 18 samples.

Results

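The genes described here encode the proteins of the cytosolic ribosome, and they were measured in group 2 innate lymphoid cells (ILC2) of mice. Members are the entries of the deposited count table whose symbol follows the naming of these genes (Rps or Rpl with a number, Rplp0 to Rplp2, and Rpsa) and whose counts sum to at least 90 over the 18 libraries. Of 24781 entries, 86 symbols match and 82 are members, 32 of the small subunit and 50 of the large subunit. The other 4 matching symbols are copies with few counts: Rpl3l and Rpl10l with 0, Rpl39l with 1 and Rps4l with 7 counts, while the members with the fewest counts are Rpl7l1 with 143 and Rpl32l with 150. All 82 members were found in the GENCODE M21 annotation, 81 as protein-coding genes, on 19 chromosomes, with 14 of them on chromosome 7 and 4 on chromosome X. The naming rule leaves out Fau and Rack1, which also give proteins of the ribosome, and near-identical copies such as Rps27rt with 4704 counts and Rplp2-ps1 with 2594 counts. Reads shared between a member and such a copy may have been divided in the counting. The levels of Rps27, Rplp2, Rpl37, Rps19, Rpl34, Rps15a, Rpl14 and Rpl31 are therefore less certain than the rest.

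ILC2 came from bone marrow, as mature cells or as immature cells that the labels also call ILC2P, and from lung. All mice lacked Rag2, a gene needed to build antigen receptors, so none of the groups holds normal T or B cells. The controls are otherwise unaltered Rag2 KO mice, and the other groups are CD45 KO x Rag2 KO mice, which also lack CD45, the tyrosine phosphatase of blood cells encoded by Ptprc. Each of the 6 groups (mature, immature and lung, each as control and as CD45 KO) has 3 libraries, and nothing in the labels says that these come from separate mice, so p-values measure the spread between libraries, which may be technical. The labels used here give no age of the mice, no gate for the cells and no kind of CD45 allele.

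A ribosome is built from ribosomal RNA and a large set of proteins, each needed in about equal number, in a small subunit that reads the mRNA and a large subunit that joins amino acids. Most mRNAs for these proteins begin with a run of pyrimidines, the 5′ terminal oligopyrimidine (TOP) tract, through which growth signalling by mTOR and LARP1 sets their translation and stability together. Lymphocytes that leave rest and begin to grow are known to make more ribosomes.

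Library totals ran from 68077 to 122250 counts. A median member had 244 counts per library and so is read with less relative counting error than Rpl7l1, at 7.94 counts per library. Ptprc stood at 253 to 628 CPM (counts scaled to a common library size with TMM factors) in the 9 control libraries and at 42.0 to 238 in the 9 CD45 KO libraries. The highest of the latter is the library labelled mature CD45 KO replicate 1, which also differed most from its group (chi-square per degree of freedom of 3.61 and 3.84 against the other libraries of the group, 1.12 to 1.80 in all other pairs). Of 14 ILC2 markers listed, Ptprc among them, each lung library detected all 14 and each marrow library 11 to 13. Their summed levels were 6459 to 9263 CPM in marrow and 12515 to 15084 CPM in lung. Markers of neutrophils summed to 2384 CPM in mature control replicate 1 and to at most 167 CPM elsewhere, with 0 in all 3 lung control libraries. Rn4.5s, a short non-coding RNA, took 4.17 to 9.90% of counts in marrow and 0.867 to 1.78% in lung. In libraries made from bulk cells, fewer cells of a type and less RNA per cell cannot be told apart.

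The start of several members is printed first, since the TOP tract is the feature that this family is known to share. RefSeq promoter windows (GRCm38.p6, 250 bases before to 50 bases after the annotated start) were matched for 62 of the 82 members. The lines below give 10 bases before and 20 bases from the start of the 6 members that rose in lung CD45 KO ILC2 and of Rps18, which was lower in control lung than in control marrow. Capitals mark a run of C followed by at least 4 further C or T letters that begins between 5 bases before and 15 bases after the start on the gene's strand.
Rps15a, chr7:118116128-118116157, minus strand: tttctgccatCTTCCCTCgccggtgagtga
Rps10, chr17:27635225-27635254, minus strand: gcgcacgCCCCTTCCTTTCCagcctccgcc
Rps7, chr12:28635934-28635963, minus strand: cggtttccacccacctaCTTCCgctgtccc
Rpl27a, chr7:109519185-109519214, plus strand: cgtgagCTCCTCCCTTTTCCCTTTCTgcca
Rps18, chr17:33955646-33955675, minus strand: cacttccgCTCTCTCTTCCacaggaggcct
Rpl13, chr8:123102340-123102369, plus strand: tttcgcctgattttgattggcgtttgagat
Rpl9, chr5:65391412-65391441, minus strand: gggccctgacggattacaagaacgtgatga

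The run was found in 39 of the 62 members with a window (62.9%) and in 32.58% of the 27025 genes in the promoter table. Rpl13 and Rpl9 show no such run at the start that RefSeq annotates, which says only that these letters are not in this window. The motif CCGGAAG, a binding motif of ETS factors searched on both strands over 300 bases, was found in 25 of 62 members (40.32%) and in 9.93% of all genes. The motif AAGATGG, bound by YY1, was found in 10 of 62 members (16.13%) against 7.28%. GGGCGG, the GC box, was found in 39 of 62 members against 38.2% of all genes. CCGGAAG can overlap a run on the other strand, since its last letters read CTTCC there. Members called lower in control lung than in mature control marrow carried the run in 21 of 33 windows and the other members in 18 of 29. The letters at the start were thus about as frequent in both sets.

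Summed over all members, the ribosomal protein genes held 19.5 to 24.5% of the counts of a library, and the lowest group was control lung. The share was 19.7%, 21.7% and 20.3% in the lung control libraries and 23.4%, 22.8% and 22.7% in the lung CD45 KO libraries, so the groups did not overlap. In mature ILC2 the share was 24.5%, 22.8% and 22.2% in control and 20.3%, 23.0% and 24.1% in CD45 KO. In immature ILC2 it was 23.0%, 22.0% and 24.0% in control and 21.3%, 19.5% and 22.7% in CD45 KO. Both marrow pairs overlapped. As mean ± SD (n = 3 each), the share was 20.6% ± 1.05 in lung control, 23.0% ± 0.364 in lung CD45 KO, 23.2% ± 1.19 and 22.4% ± 1.93 in mature control and CD45 KO, and 23.0% ± 0.989 and 21.2% ± 1.58 in immature control and CD45 KO. With the abundant Rn45s and Rn4.5s taken out of the totals, the shares became 22.6% in lung control, 25.0% in lung CD45 KO and 26.7 to 28.0% in the 4 marrow groups, so the order of lung below marrow then held in both genotypes. These shares are descriptions and were not tested.

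**Figure D1:**
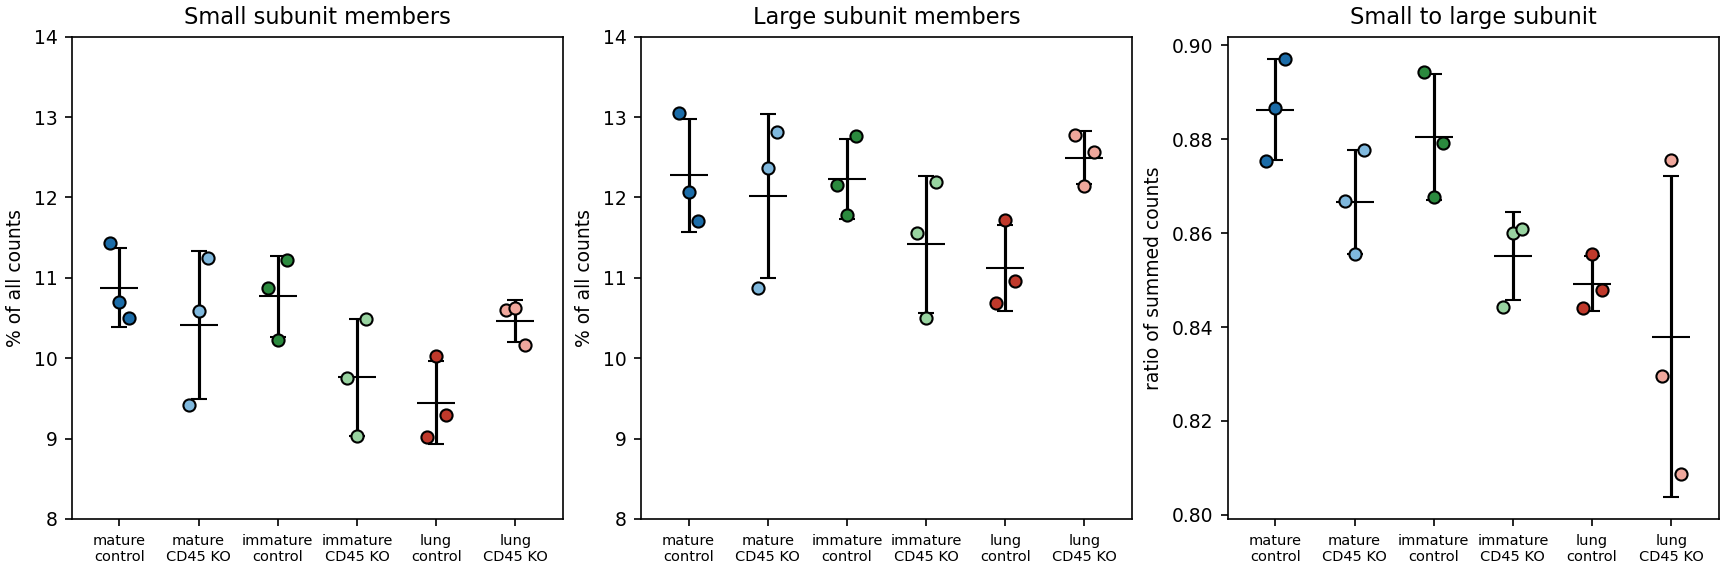
Share of all counts (%) held by small-subunit members (left) and large-subunit members (middle), and the ratio of the summed counts of the small to the large subunit (right), by group. Each point is 1 library, lines are the group mean and SD, and the axes do not begin at 0. The lung control points lie lowest for both subunits on average, while the ratio in lung CD45 KO spreads from 0.809 to 0.875.

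Loss of CD45 in lung ILC2 was the 1 genotype comparison in which ribosomal protein genes passed the test. Of 81 members tested (Rpl32l had too few counts), 6 rose in CD45 KO and 0 fell, against 2.04% of all 1916 genes that rose and 0.470% that fell. These were the small-subunit genes Rps15a, Rps10 and Rps7 and the large-subunit genes Rpl13, Rpl27a and Rpl9. The median log2 change was 0.28 over the members and 0.01 over all genes tested, and 75 of the 81 members had a positive value. The CD45 KO libraries lay wholly above the control libraries for 54 members and wholly below for 0, against 12.3% of all genes that lay wholly above and 7.41% wholly below. At an unadjusted p under 0.05, 42 members were higher, while 14.5% of all genes differed in either direction. All tests used edgeR's quasi-likelihood F, and p-values were adjusted by Benjamini-Hochberg over the 1916 genes with a threshold of 0.05.

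Rps15a, a small-subunit protein that also has a bacterial counterpart, was at 1951, 2439 and 2233 CPM in lung control and at 3505, 2922 and 3468 CPM in lung CD45 KO. All 3 control libraries lay below all 3 CD45 KO libraries and below all 12 marrow libraries. Its log2 change was 0.57 (SE 0.12, edgeR adjusted p = 0.00191), and the gene lies at chr7:118104372-118116188 (mm10) on the minus strand.

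Rps10, which encodes a protein of the head of the small subunit and is mutated in some patients with Diamond-Blackfan anaemia, was at 2193, 2129 and 2049 CPM in lung control and at 3282, 2913 and 2941 CPM in lung CD45 KO. The control libraries were close together and below all other 15 libraries, the nearest of which was at 2561 CPM. The log2 change was 0.52 (SE 0.12, edgeR adjusted p = 0.0063).

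Rps7, a small-subunit protein also known to bind MDM2, was at 2259, 2289 and 2392 CPM in lung control and at 3435, 3108 and 3360 CPM in lung CD45 KO. The groups were again apart, and the CD45 KO values fell within the marrow range of 3088 to 4128 CPM. The log2 change was 0.51 (SE 0.12, edgeR adjusted p = 0.00892).

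The 3 large-subunit genes had smaller fold changes. Rpl13 was at 3240, 3455 and 3552 CPM in lung control and 4478, 4308 and 5100 CPM in lung CD45 KO (log2 change 0.43, edgeR adjusted p = 0.0291). Rpl27a was at 2689, 2514 and 2655 CPM against 3699, 3201 and 3630 CPM (0.42, edgeR adjusted p = 0.0422). Rpl9 was at 2381, 1883 and 2093 CPM against 2726, 2680 and 3130 CPM (0.42, edgeR adjusted p = 0.0467). The control and CD45 KO libraries did not overlap for any of these genes. When each of the 6 lung libraries was left out in turn, Rps15a and Rps7 passed every time, Rps10 was lost without lung control replicate 3 (edgeR adjusted p = 0.0561), and Rpl13, Rpl27a and Rpl9 were lost in 4, 5 and 5 of the 6 fits. The count of members called was 2 without lung control replicate 3, 3 without lung control replicate 2 and 3 without lung CD45 KO replicate 3. Over all genes, in either direction, these fits called 29, 29 and 36. With library totals in place of TMM scaling 3 members were called and with no filter on low counts 1, while DESeq2's Wald test called 16. Over all genes these settings called 34, 22 and 41. Macrophage and monocyte markers (8 listed, 5 detected there, Csf1r at 0) summed to 264 CPM in lung CD45 KO replicate 1 and to 0 in the other 5 lung libraries. Without that replicate 6 members were called, of which 4 were the same genes, and 42 of all genes were called.

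**Figure D2:**
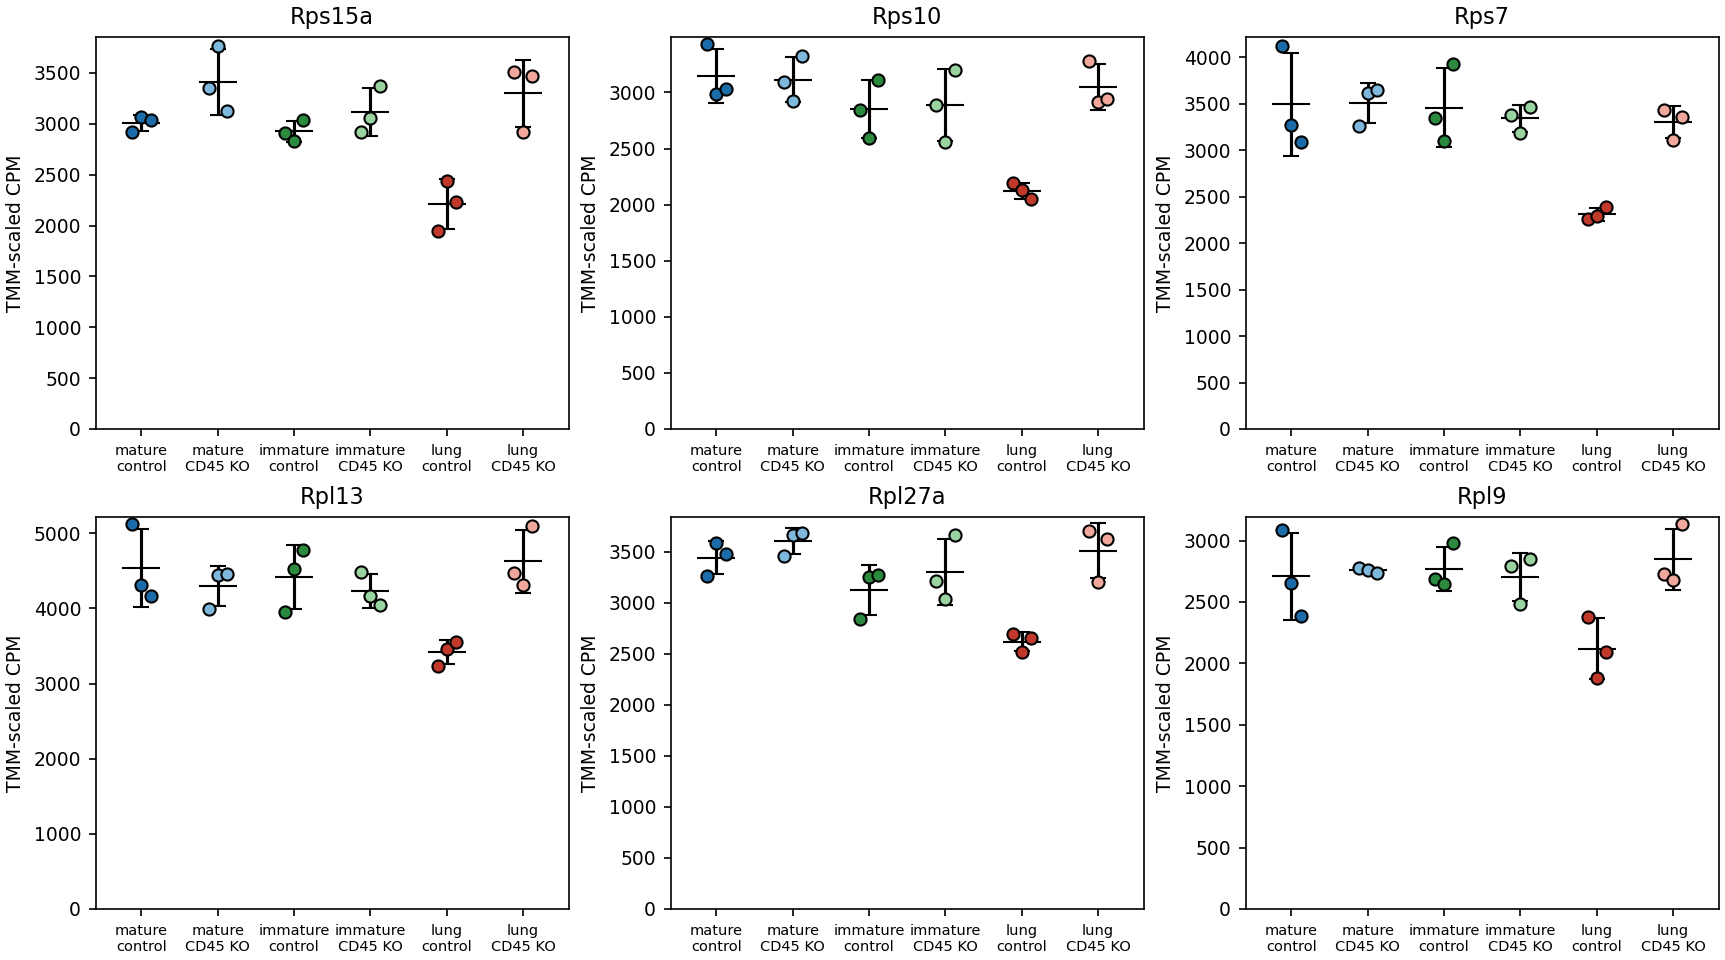
Levels (TMM-scaled CPM, linear axes from 0) of the 6 members that passed the test between CD45 KO and control lung ILC2, in all 18 libraries. Each point is 1 library and lines are the group mean and SD. For each gene the 3 lung control points are the lowest group, and the lung CD45 KO points lie near the marrow points.

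In marrow no member passed the test for CD45 KO against control. In mature ILC2, 0 of 81 members were called, against 0.261% of all genes, and 1 member had an unadjusted p under 0.05 (9.03% of all genes did). The median log2 change was -0.03 and 32 members were positive. The median turned to 0.05 without mature CD45 KO replicate 1, the library that stands apart, and to 0.03 without mature control replicate 1. In immature ILC2, 0 of 81 were called, against 1.67% of all genes, and 3 had an unadjusted p under 0.05 (12.3% of all genes did), with a median of -0.05 and 30 positive. This median turned to 0.02 without immature control replicate 3 and to 0.03 without immature CD45 KO replicate 2. DESeq2's Wald test also called 0 members in both. Among the genes that rose in lung, Rps10 and Rps7 were close to 0 in marrow. Rps10 changed by -0.01 (95% interval -0.25 to 0.22) in mature and 0.02 (-0.22 to 0.25) in immature ILC2, and Rps7 by 0.02 (-0.22 to 0.25) and -0.05 (-0.28 to 0.19). Rps15a was not as flat. It was at 2921, 3067 and 3038 CPM in mature control and 3348, 3765 and 3123 CPM in mature CD45 KO, without overlap and not called. In immature ILC2 it overlapped, at 2908, 2833 and 3039 CPM in control and 2918, 3055 and 3371 CPM in CD45 KO. In mature ILC2, 3 members and 126 of the 1916 genes lay wholly above control.

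The difference between the effects was tested directly. For the effect of CD45 loss in lung minus that in mature ILC2, 0 of 81 members passed (0.313% of all genes did). The smallest adjusted p was 0.168, and 26 members had an unadjusted p under 0.05 (10.1% of all genes did), all with a larger value in lung. For lung minus immature ILC2, 0 of 81 passed (0.365% of all genes did), with a smallest adjusted p of 0.107, for Rps6 and Rps7, and 33 unadjusted p under 0.05 (12.5% of all genes). The median difference was 0.31 in both, and 76 and 74 members were positive. The contrasts share the lung libraries and so are not independent of each other. DESeq2's Wald test called 2 and 1 members. The effect in lung was thus not shown to differ from that in marrow for any single member by edgeR's test.

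**Figure D3:**
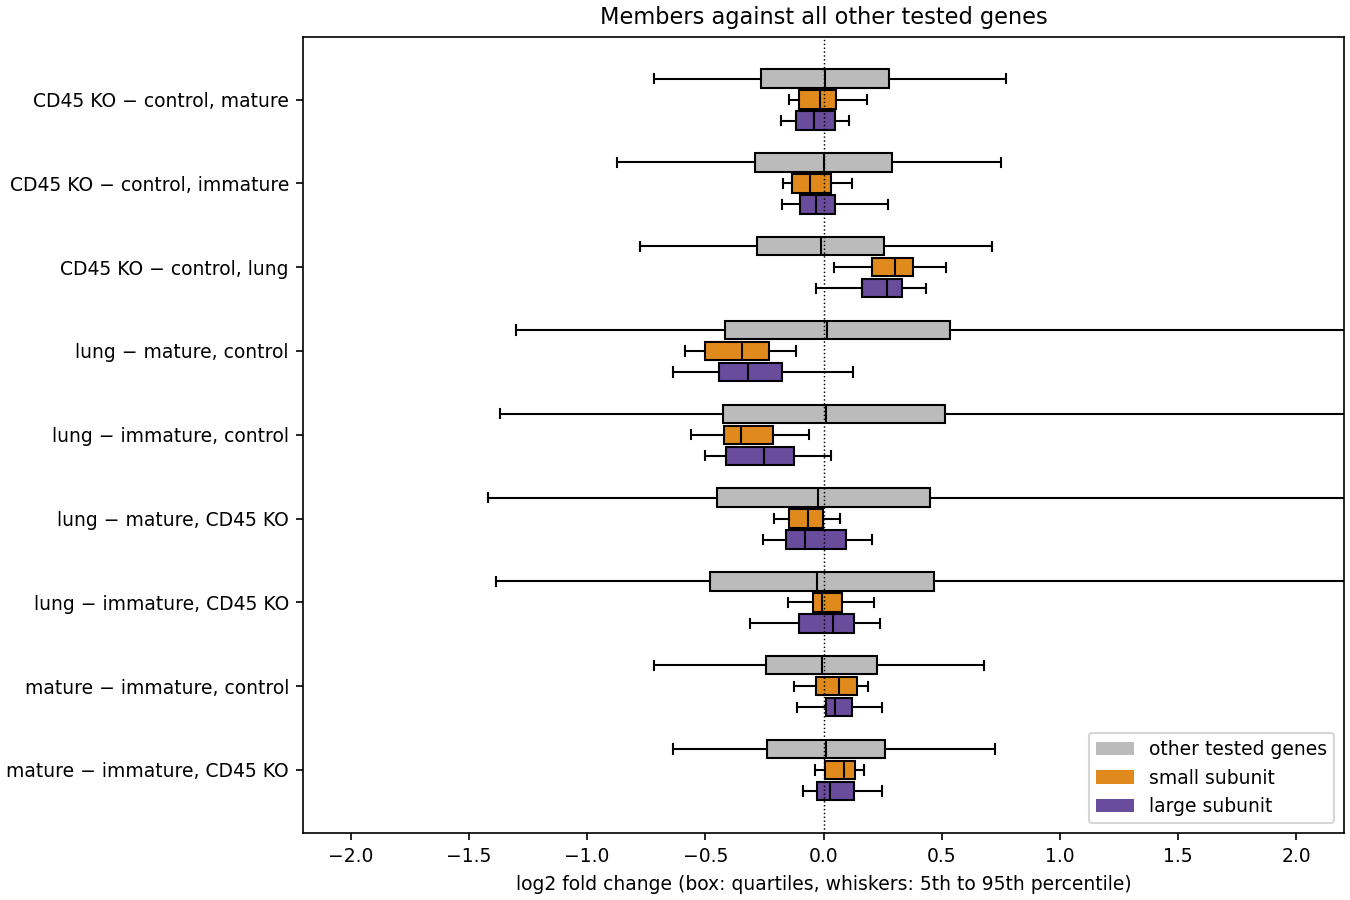
Log2 fold changes of the 32 small-subunit (orange) and 49 large-subunit members tested (purple) beside the 1835 other genes tested (grey) in 9 comparisons. Boxes span the quartiles with the median as a line, whiskers run from the 5th to the 95th percentile, and the axis ends cut off some grey whiskers. Both subunits lie to the right of 0 for CD45 KO against control in lung and to the left of 0 for lung against marrow in control.

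The largest number of differing members was between tissues in control mice. Control lung ILC2 had lower levels than mature control marrow ILC2 for 42 of 81 members and higher levels for 0, against 10.6% of all genes called lower and 15.0% called higher. Against immature control marrow ILC2, 33 members were lower and 0 higher, against 10.9% and 14.6% of all genes. Median log2 changes were -0.34 and -0.28 over the members, and -0.03 and -0.02 over all genes tested. The lung libraries lay wholly below those of mature marrow for 54 members (17.3% of all genes) and below those of immature marrow for 49 (18.2%). The lung control libraries also served the test of CD45 loss in lung, so that result and these tissue differences are not independent. All 6 members called there were among the 42, and 5 were among the 33. Both tissue comparisons use the same lung control libraries, and 30 members were called in both. These overlaps were counted for members only, so the overlap over all genes is not known. With library totals in place of TMM scaling, which moved the median of all genes to 0.12 and 0.07, 20 and 18 members were lower and 1 was higher in each, with member medians of -0.185 and -0.183. With no filter on low counts 6 and 3 were called, with member medians of -0.19 and -0.14. Over all genes, in either direction, 492 and 467 were called with library totals, and 479 and 483 with no filter.

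Rpl17, whose protein lines the exit of the peptide tunnel, stood out among them. It was at 3185, 3070 and 3007 CPM in lung control, at 5186, 4594 and 5123 CPM in mature control and at 4444, 4207 and 5272 CPM in immature control. The lung values were tightly grouped and below every one of the other 15 libraries. The log2 change was -0.69 (SE 0.12, edgeR adjusted p = 3.72e-06) against mature and -0.59 (SE 0.12, edgeR adjusted p = 7.66e-05) against immature marrow.

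Rpl36a, an X-linked gene at chrX:134585654-134588062 (mm10), was at 959, 1251 and 1082 CPM in lung control, 2071, 1610 and 1684 CPM in mature control and 1868, 1571 and 2160 CPM in immature control. No lung control library reached any marrow library. Its log2 change was -0.70 (SE 0.15, edgeR adjusted p = 7.14e-05) against mature and -0.76 (SE 0.14, edgeR adjusted p = 1.04e-05) against immature marrow, the smallest p of any member in the latter.

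Among small-subunit genes, Rps18, a protein of the head, was at 2601, 2770 and 3130 CPM in lung control and 4560, 3956 and 4451 CPM in mature control (-0.61, SE 0.12, edgeR adjusted p = 5.26e-05). Rps6, the substrate of the S6 kinases downstream of mTOR, was at 2337, 2268 and 1934 CPM against 3189, 3165 and 3298 CPM (-0.57, SE 0.13, edgeR adjusted p = 0.000323). Neither gene overlapped between the tissues. With Rpl17 and Rpl36a they belong to the 12 members with the smallest p, which also include Rps7, Rpl12, Rps10, Rps24, Rpl10, Rps9 and Rpl32, with log2 changes from -0.59 to -0.52. All 12 kept the call when any 1 of the 6 libraries was left out.

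Not every member was lower in lung. Rpl41, which encodes the shortest protein of the ribosome, was at 3262, 5198 and 3948 CPM in lung control against 3249, 4095 and 3399 CPM in mature control (0.21, edgeR adjusted p = 0.282). Rpl36 was at 1631, 3252 and 2585 CPM against 2295, 2138 and 2236 CPM (0.17, edgeR adjusted p = 0.446), and its sign turned to -0.05 without lung control replicate 2, while it passed as higher in lung without lung control replicate 1 (0.40). Rpl41 had 0.03 without lung control replicate 2. Rpl37a had 0.16 against immature control (edgeR adjusted p = 0.374), and 0.0018 without that library. For these genes lung control replicate 2 was the highest of its group, and the tissues overlapped.

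Across all 6 groups, control lung had the lowest mean of the 6 for 69 of the 81 members, 29 of 32 in the small and 40 of 49 in the large subunit. For 28 members (13 small, 15 large) all 3 lung control libraries lay below all other 15 libraries. Mature control had the highest mean for 38 members. These counts were made for members only, so how often other genes showed the same order is not known. The median member stood at -0.29, -0.21 and -0.25 log2 units from its own mean in the lung control libraries, and between -0.14 and 0.20 in the other 15. Mature control replicate 1, at 0.20, was the highest library of all, and it is the library with the high neutrophil sum. Without it 26 members were called lower in lung than in mature control marrow, while 446 of all genes were called in either direction. The part of the neutrophil signal in the result was not tested. In the comparison with immature marrow, 14 members were called without immature control replicate 3 and 19 without lung control replicate 3. Over all genes those fits called 422 and 416.

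**Figure D4:**
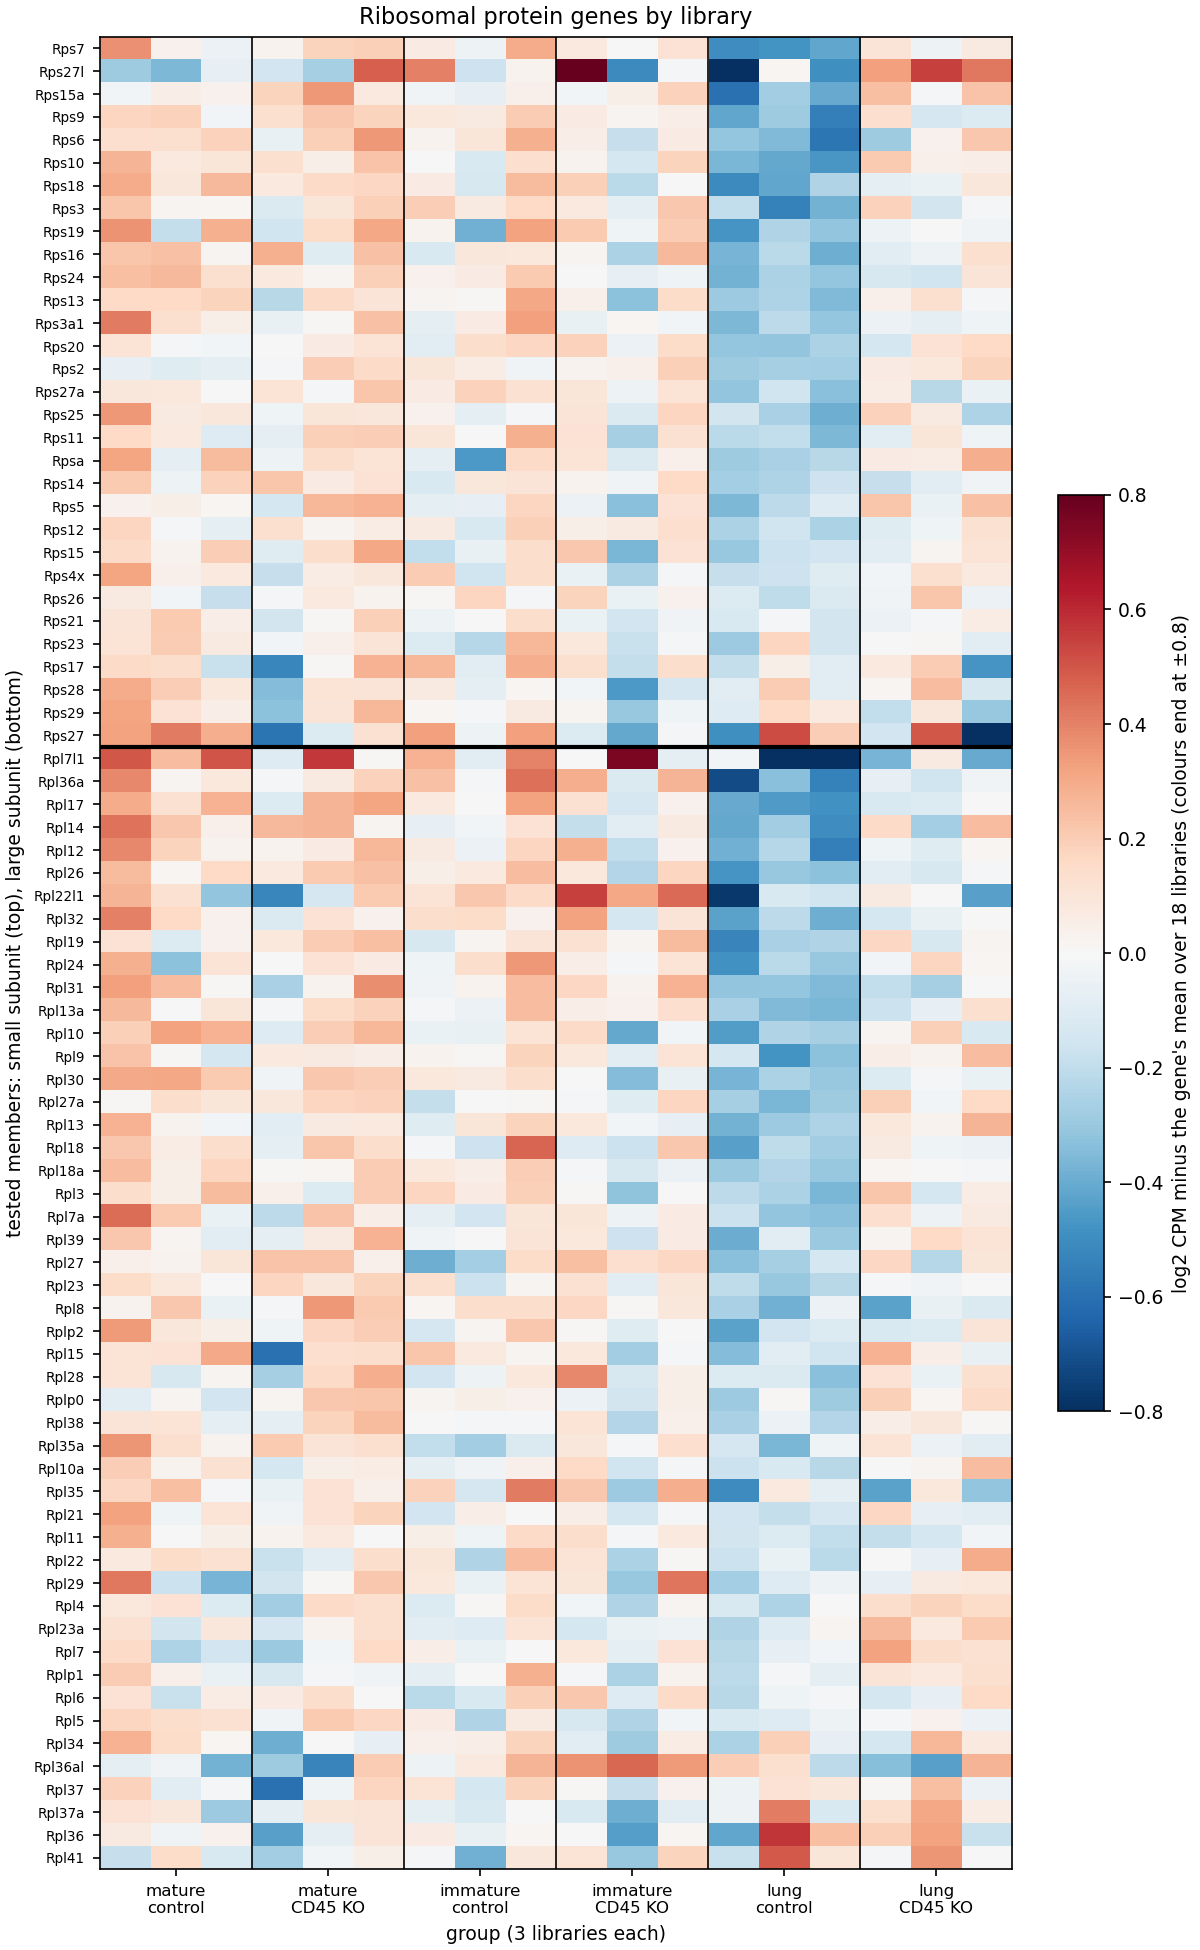
Level of 80 of the 81 tested members in each of the 18 libraries, as log2 CPM minus the gene's mean over all libraries (colours end at ±0.8). Small-subunit genes are on top, large-subunit genes below, each ordered by the mean of the lung control libraries, and columns are the 3 libraries of each group. The 3 lung control columns are blue for most genes, while Rpl41, Rpl36 and Rpl37a, the lowest lines, are above their mean in lung control replicate 2.

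The tissue comparison was then read in CD45 KO mice, with no libraries shared with the controls. Lung CD45 KO ILC2 had lower levels than mature CD45 KO ILC2 for 2 of 81 members, among them Rpl8, and higher levels for 0, against 9.55% of all genes called lower and 14.8% called higher. Against immature CD45 KO ILC2, 1 member was higher, Rpl37a, and 1 lower, Rpl36al, against 15.7% of all genes called higher and 9.55% called lower. The median log2 changes of -0.07 and 0.01 lay near those of all genes (-0.03 and -0.02). The first turned to 0.01 with library totals, and the second to -0.03 without immature CD45 KO replicate 2 and to -0.03 with only the libraries compared.

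Rpl8, a protein of the peptidyl transferase region, was at 1627, 2103 and 2024 CPM in lung and at 2168, 2805 and 2543 CPM in mature CD45 KO ILC2 (-0.38, SE 0.13, edgeR adjusted p = 0.018). The tissues did not overlap, yet the call was lost in 3 of the 6 fits that left out a library. Without mature CD45 KO replicate 1, the library that stands apart, 4 members were called lower.

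Of the 76 members with a negative value for lung against mature marrow in controls, 55 were also negative in CD45 KO mice, and 70 had a value nearer 0 in CD45 KO. Picking genes by their control values by itself favours values nearer 0 in the other genotype. How often other genes picked in this way did so is not known. The genes named next were also picked by their control values. Rpl17 had -0.69 in control and -0.25 in CD45 KO (edgeR adjusted p = 0.123). Rpl36a had -0.70 and -0.18 (edgeR adjusted p = 0.405), and Rps18 -0.61 and -0.15 (edgeR adjusted p = 0.441). The difference between these tissue effects is the same contrast as the difference between the CD45 effects above, in which no member passed.

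**Figure D5:**
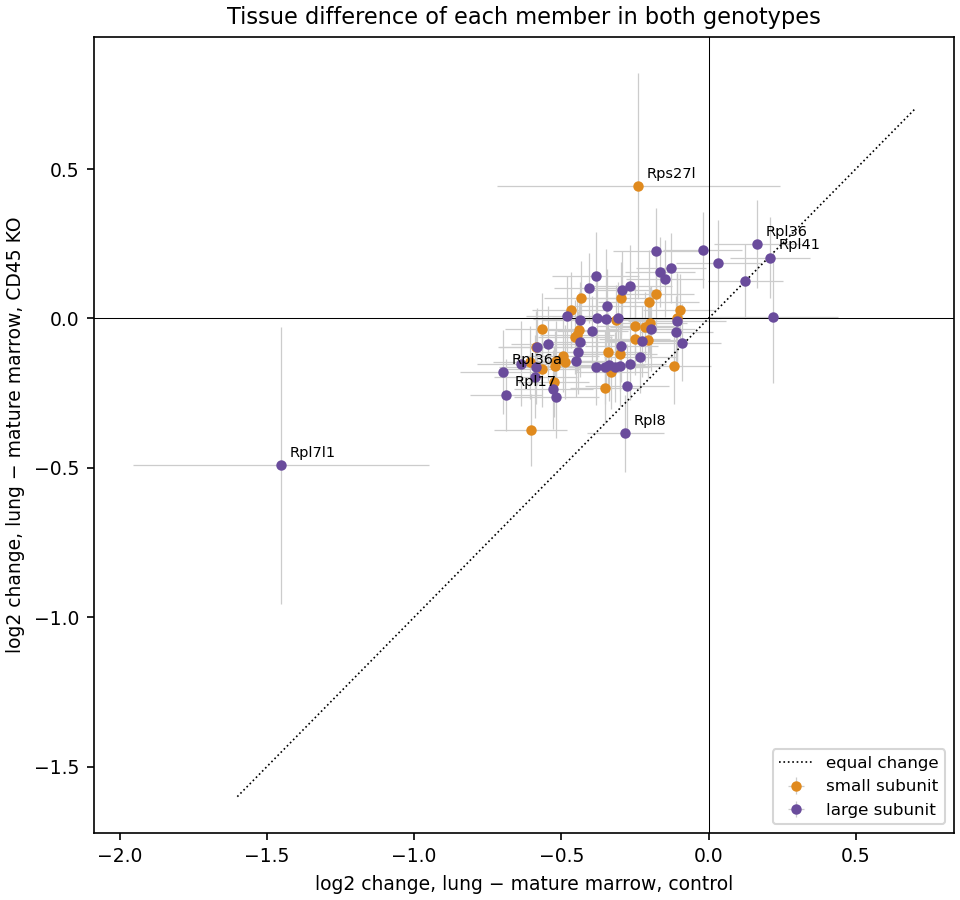
Log2 change of each of the 81 members between lung and mature marrow ILC2 in control mice (horizontal) and in CD45 KO mice (vertical), with SE as grey bars and the dotted line for equal change. Most points lie left of 0 and above the dotted line, and Rpl8, which was called in CD45 KO mice, is labelled.

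No member passed between mature and immature marrow ILC2. In control mice 0 of 81 members passed (0.0522% of all genes did), 3 had an unadjusted p under 0.05 (5.38% of all genes did), and the median was 0.05, or -0.01 with library totals. In CD45 KO mice 0 of 81 passed (0.678% of all genes did), 4 had an unadjusted p under 0.05 (8.04% of all genes did), and the median was 0.07. DESeq2's Wald test called 0 members in both.

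Genes of both subunits were called in the same direction, and the difference between subunits was not tested. For CD45 KO against control in lung the median log2 change was 0.30 over small and 0.27 over large subunit genes, with 3 called in each. For lung against mature marrow in control mice it was -0.35 and -0.32, with 19 of 32 and 23 of 49 called lower, and against immature marrow -0.35 and -0.25, with 17 and 16 called lower. The ratio of summed small to large subunit counts was 0.886 ± 0.0108 in mature control, 0.867 ± 0.0111 in mature CD45 KO, 0.880 ± 0.0134 in immature control, 0.855 ± 0.00934 in immature CD45 KO, 0.849 ± 0.00585 in lung control and 0.838 ± 0.0342 in lung CD45 KO (SD, n = 3). Part of this order came from 1 gene. With Rps27 left out of the sum, the means were 0.815 in both mature groups, 0.812 and 0.802 in immature control and CD45 KO, 0.774 in lung control and 0.783 in lung CD45 KO. The lower values in lung remained, and the gap between the mature groups did not.

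Rps27, a small-subunit protein with a zinc finger, varied most between libraries of the same group. Its SD, pooled over the 6 groups, was 0.44 log2, against a median of 0.14 over the members. The low-count genes Rps27l and Rpl7l1 came near it, at 0.403 and 0.400. It was at 8942, 9549 and 8772 CPM in mature control and 4777, 6629 and 7795 CPM in mature CD45 KO, groups that did not overlap. It was at 8999, 6978 and 9019 CPM in immature control and 6634, 5400 and 7131 CPM in immature CD45 KO, which overlapped. In lung it ran from 5103 to 10311 CPM in control and from 3265 to 10124 CPM in CD45 KO. The log2 changes were -0.50, -0.38 and -0.24, and none passed (edgeR adjusted p = 0.249, 0.313 and 0.582). The lung value turned to 0.02 without lung control replicate 2 and to 0.10 without lung CD45 KO replicate 3. The near-identical copy Rps27rt may share its reads.

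The stalk of the large subunit, which recruits the translation factors, is formed by the products of Rplp0, Rplp1 and Rplp2. Rplp0 was at 2293, 2824 and 2304 CPM in lung control and 3199, 2838 and 3117 CPM in lung CD45 KO, with no overlap (0.30, edgeR adjusted p = 0.2). Rplp1 was at 6756, 7744 and 7412 CPM against 8400, 8235 and 8541 CPM, also apart (0.20, edgeR adjusted p = 0.47). Rplp2 overlapped, at 1631, 1979 and 2040 CPM against 2017, 2038 and 2361 CPM (0.18, edgeR adjusted p = 0.603). Of the stalk genes only Rplp2 passed between tissues, with -0.38 for lung against mature marrow in controls (edgeR adjusted p = 0.0201). Rpsa, a small-subunit protein also known as the laminin receptor, was at 3240, 3305 and 3385 CPM in lung control and 4144, 4122 and 4830 CPM in lung CD45 KO. The groups did not overlap, and the change of 0.40 missed the threshold (edgeR adjusted p = 0.0758). Against mature control marrow, lung control was lower by a log2 change of -0.43 (edgeR adjusted p = 0.00603).

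A few members are second copies of another ribosomal protein gene. Rpl36al, the autosomal copy of the X-linked Rpl36a, was at 474, 449 and 352 CPM in lung control and 387, 403 and 311 CPM in mature control, so it was not lower in lung where Rpl36a was. The ratio of Rpl36al to Rpl36a counts was 0.393 ± 0.0895 in lung control, 0.207 ± 0.0371 in mature control, 0.240 ± 0.0325 in immature control and 0.214 to 0.313 as means of the 3 CD45 KO groups. This ratio was not tested. In immature CD45 KO ILC2, Rpl36al was at 532, 571 and 525 CPM, above all 3 lung CD45 KO libraries at 320, 298 and 499 CPM (-0.57, SE 0.21, edgeR adjusted p = 0.028), a call lost in 5 of 6 fits that left out a library.

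Rpl22l1, the copy of Rpl22, was likewise highest in immature CD45 KO ILC2, at 473, 398 and 441 CPM, against 334, 316 and 229 CPM in lung CD45 KO (-0.56, edgeR adjusted p = 0.0519). Rps27l, the p53-responsive copy of Rps27, was at 44.1, 96.3 and 61.6 CPM in lung control and 125, 149 and 135 CPM in lung CD45 KO. The groups did not overlap, but with so few counts the change of 1.02 had an SE of 0.42 (edgeR adjusted p = 0.205). Rpl7l1, the copy of Rpl7, was at 77.2, 32.1 and 17.6 CPM in lung control and 119, 97.2 and 120 CPM in mature control (-1.45, SE 0.50, edgeR adjusted p = 0.0234). The tissues did not overlap, and the call was lost in 4 of 6 fits that left out a library. Rpl32l, annotated as a processed pseudogene on chromosome 10, had too few counts to be tested, at 85.6 to 99.2 CPM in lung control and 27.8 to 65.1 CPM in lung CD45 KO.

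Related genes were read from lists of translation and ribosome biogenesis genes. Of 20 other TOP mRNAs tested, 2 rose and 0 fell with CD45 loss in lung, where 2.04% of all genes rose and 0.470% fell: Rack1, the scaffold protein of the small subunit, at 1664, 1840 and 1723 CPM against 2531, 2112 and 2496 CPM (0.44, edgeR adjusted p = 0.044), and Tpt1, at 8145, 8001 and 8186 CPM against 10945, 10320 and 10524 CPM (0.38, edgeR adjusted p = 0.0467). Neither gene overlapped between the groups. The median of this list was 0.13. For lung against mature marrow in controls, 5 of the 20 were lower and 1 higher (10.6% and 15.0% of all genes were), among them Fau (-0.48, edgeR adjusted p = 0.00181), which encodes Rps30, and Eif4b (-0.89, edgeR adjusted p = 0.00181). Pabpc1, the poly(A) binding protein, was higher (0.65, edgeR adjusted p = 2.59e-05). For lung against immature marrow in controls, 2 were higher and 2 lower, shares near or below the 14.6% and 10.9% of all genes. In CD45 KO mice 3 and 5 of the 20 were higher in lung than in mature and immature marrow (14.8% and 15.7% of all genes were), and 0 were lower (9.55% in both).

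Of 42 ribosome biogenesis factors listed, 11 had enough counts to be tested. Nucleolin (Ncl) was at 562, 396 and 343 CPM in lung control and 849, 791 and 822 CPM in mature control (-0.94, edgeR adjusted p = 3e-05), with no overlap. It was also lower in lung than in mature marrow in CD45 KO mice (-0.63, edgeR adjusted p = 0.00345). Of the 11 genes, 1 was called lower in lung against mature and 4 against immature marrow in controls (Ncl, Nop56, Nop58 and Dkc1), and 1 and 2 in CD45 KO mice, where 10.6%, 10.9%, 9.55% and 9.55% of all genes were called lower. None was called for CD45 KO against control in lung, where the smallest adjusted p of the list was 0.536. Among 11 tested regulators of growth signalling, Ddit4, an mTOR inhibitor, was lower in control lung than in mature marrow, at 0, 42.8 and 35.2 CPM against 253, 222 and 241 CPM (-3.09, edgeR adjusted p = 4.69e-09). Mxd1, a MYC antagonist, was higher there, at 88.2, 182 and 141 CPM against 14.9, 41.6 and 20.1 CPM (2.39, edgeR adjusted p = 0.000573). Both genes differed in the same direction in CD45 KO mice, without overlap. Ddit4 was at 27.8, 65.1 and 40.5 CPM in lung CD45 KO against 191, 236 and 194 CPM in mature CD45 KO. Mxd1 was at 125, 140 and 135 CPM against 47.7, 16.8 and 17.6 CPM. None of the 11 passed for CD45 KO against control in lung, where the smallest adjusted p was 0.0798. Of 5 mitochondrial ribosomal protein genes tested, Mrpl33 was higher in control lung than in mature marrow (1.28, edgeR adjusted p = 0.0146), and of 6 chaperone and acetyltransferase genes 0 passed in that comparison.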

How the data were processed

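RNA was sequenced from sorted ILC2 in 18 libraries, 3 for each of 6 groups. Per the labels' protocols, 200 cells were sorted per sample (another passage speaks of 100 cells per tube), and lysates went into oligo-dT reverse transcription with a molecular barcode and template switching. ERCC RNA was added, per the labels' protocols, but 0 entries of the table used here are ERCC RNAs, so levels are relative to the other genes. The authors deposited a single table of unscaled counts, whole numbers for each gene symbol. STAR and mm10 are named without a version in the submitters' processing notes. Not given in the sources used here are the counting tool, the annotation, the strand and any collapsing of barcodes.

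All genes that passed edgeR's filterByExpr (minimum count 10; 1916 of 24781) were fitted with 1 mean per group in edgeR 4.0.16 under R 4.3.3, using TMM factors and the quasi-likelihood test, and p-values were adjusted over all of them by Benjamini-Hochberg with a threshold of 0.05. SE is the log2 change divided by the square root of F, and 95% intervals are 1.96 SE to either side. Levels are CPM on TMM-scaled library sizes. Totals of 68077 to 122250 counts mean that 0 counts allow up to 44.7 CPM (3 counts in the library with the smallest scaled size), a limit that covers counting error only. The code was tested on simulated counts. Members and gene lists were chosen with earlier results of these data known. Named members are, per comparison, up to 12 called ones with the smallest adjusted p and the 3 highest and 3 lowest log2 changes, and also the stalk genes, Rpsa and the second copies; up to 4 called genes are named per list. Rps27 was chosen after its spread was seen. Alternatives were DESeq2 1.42.0 (size factors and Wald test), library totals, TMM without the members, other filters, only the libraries compared, no Rn45s and Rn4.5s, a replicate block, and each replicate left out. The ratio without Rps27 and the medians under these alternatives were added after seeing the data. Some items are not reported here.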

Additional observations from a re-analysis of the deposited data

How the results depend on the processing

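Counts of members called moved with the scaling, the filter and the tool. For CD45 KO against control in lung (6 called), the count was 11 with DESeq2 size factors, 3 with library totals, 1 with no filter, 10 with at least 10 counts in 3 libraries, 16 with DESeq2's Wald test, 3 with only the libraries compared, 10 without Rn45s and Rn4.5s, and 2 to 7 when 1 library was left out. For lung against mature marrow in controls (42 called) it was 21 with library totals, 6 with no filter and 26 to 35 with 1 library left out. For lung against immature marrow in controls (33 called) it was 19, 3 and 14 to 29. Over all genes, these 2 comparisons called 492 and 467 with library totals, and 479 and 483 with no filter. With 1 library left out they called 393 to 452 and 416 to 448. In CD45 KO mice, lung against mature marrow (2 called) gave 0 with library totals, 0 with no filter, 0 with at least 10 counts in 3 libraries, 1 with the Wald test and 0 to 4 with 1 library left out. Lung against immature marrow (2 called) gave 5 with library totals, 0 with no filter, 1 with the Wald test, 6 with only the libraries compared and 1 to 5 with 1 library left out. For these comparisons in CD45 KO mice, the main fit called 14.8% and 15.7% of all genes higher and 9.55% lower in both. Their counts over all genes under the other settings are not given here. CD45 KO against control in immature ILC2 (0 called) gave 1 with only the libraries compared, a fit that called 37 of all genes. The difference of CD45 effects (0 called) gave 2 for lung minus mature and 1 for lung minus immature ILC2 with the Wald test. The main fit called 0.313% and 0.365% of all genes in these, and the Wald counts over all genes are not given here. Over all genes, CD45 KO against control in lung called 54 with DESeq2 size factors, 34 with library totals and 22 with no filter. It called 55 with at least 10 counts in 3 libraries, 41 with the Wald test and 46 with only the libraries compared. It called 51 without Rn45s and Rn4.5s, and 29 to 42 with 1 library left out. The cause was not tested.

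Medians near 0 changed sign under some settings (for the median over all members, changes smaller than the spread between libraries stand in the report), and so did single genes; the cause was not tested. With no filter the median log2 change of all, small and large members was 0.11, 0.12 and 0.10 for CD45 KO in mature ILC2 and 0.0510, 0.0344 and 0.0598 in immature ILC2. With library totals the small-subunit median for lung against immature marrow in CD45 KO mice was 0.0932. With 1 library left out, Rps27 in lung (CD45 KO against control) ran from -0.699 to 0.102, with 0.0181 without lung control replicate 2 and 0.102 without lung CD45 KO replicate 3. Rpl36 in controls ran from -0.0485 to 0.401 (lung against mature) and from -0.0242 to 0.424 (lung against immature), lowest without lung control replicate 2. The deviations of same-numbered libraries had correlations from -0.0888 to 0.0755. Counting error at this depth can hide shared deviations, so these values cannot decide whether replicate numbers pair the libraries. With the replicate number as a block, 6 members were called in lung CD45 KO against control, all 6 the same, and the block changed no other count of calls by over 1.5 times. A member with few counts, such as Rpl7l1 or Rps27l, is limited by depth.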
